A study of Mus musculus with 16 samples.

Results

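A set of 10 genes of mouse gastrocnemius, a mainly fast-fibred calf muscle, is described here: Khdrbs3, Frzb, Tm6sf1, Shc2, Ank2, Timm21, Klf5, Twistnb, Cdk19 and Hist3h2a. They were selected by name from the 23440 genes of an RNA sequencing table, on their RPKM values, for a difference with endurance training in wild-type (WT) muscle that was smaller or opposite in Il13-/- (KO) muscle. The training values therefore chose the genes and are given as a description, with no test. The table holds 16 libraries, each from the muscle of 1 male C57Bl6/J mouse aged 20 weeks, in 4 groups of 4: KO trained, KO untrained, WT trained and WT untrained. Trained mice ran daily on a treadmill for 5 weeks, and untrained mice of each genotype were the controls. The labels do not say how the knockout was made, whether the mice were littermates or in which order the libraries were sequenced. Levels are RPKM, reads scaled to the length of the gene and to the total of the library, so levels of different genes can be set side by side.

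Interleukin-13 is a type 2 cytokine that signals through a receptor shared with interleukin-4 and activates the transcription factor STAT6, and in muscle it has been tied to the metabolic adaptation to endurance exercise. Endurance training is known to shift fast muscle towards oxidative fibres, which carry the type 2A myosin heavy chain Myh2 in place of faster forms, while slow fibres carry Myh7. None of the 10 genes is a textbook gene of that shift. Their proteins are secreted or sit in membranes (Frzb, Tm6sf1), act just beneath the cell membrane (Shc2, Ank2), belong to mitochondria (Timm21), or act on RNA, transcription or chromatin (Khdrbs3, Klf5, Twistnb, Cdk19, Hist3h2a).

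Solved library totals were 16307025 to 20074677 reads. Il13 itself had 0, 1, 0 and 1 reads in KO trained, 2, 1, 0 and 0 in KO untrained and 0 in all 8 WT libraries, so its reads did not check the genotype labels at this depth. All 10 muscle fibre markers averaged at least 1 RPKM. Their summed level was 60088 to 65543 RPKM in KO trained and 66798 to 68732 in KO untrained libraries. It was 60006 to 68543 in WT trained and 69920 to 76977 in WT untrained libraries. This fibre sum mainly follows Acta1, Tnnt3, Ckm, Myh4 and Pvalb, with medians of 16849, 16509, 13827, 9269 and 7308 RPKM. Myh2 and Myh7 are in the same list, with medians of 414 and 23.7 RPKM, and add little to it. Both were higher in all WT trained than in all WT untrained mice, where the sum was lower. Of 10 marker lists, 7 had summed levels that overlapped between trained and untrained mice of each genotype and between the genotypes in each training state. They were those of satellite cells, fibro-adipogenic progenitors, adipocytes, endothelium, smooth muscle and pericytes, macrophages and blood. The other 3 were those of fibres, tendon, and nerve and Schwann cells. A sum follows its most abundant genes, such as Car3 and Fabp4 (medians 878 and 310 RPKM) among adipocyte markers. Of the 5 satellite cell markers, 2 averaged at least 1 RPKM. Overlapping sums therefore do not show that a cell type was steady. The tendon sum over 10 genes, 9 of which averaged at least 1 RPKM and none of which was at 0, was 100 to 235 RPKM in KO trained, 150 to 264 in KO untrained, 211 to 274 in WT trained and 124 to 159 in WT untrained libraries. The nerve and Schwann cell sum over 7 genes, 5 of which averaged at least 1 RPKM and none of which was at 0, was 42.7 to 61.1 RPKM in KO trained, 63.1 to 140.9 in KO untrained, 33.2 to 95.2 in WT trained and 48.4 to 62.1 in WT untrained libraries, so the KO untrained libraries lay above the KO trained and the WT untrained ones. The part of these 3 lists in the values that follow was not tested, and in whole muscle fewer cells of a type and less RNA per cell cannot be told apart.

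Promoter windows of RefSeq (GRCm38.p6) reached from 250 bases before to 50 after the start of transcription, and 5 of the 10 genes had a window at the start that the table lists. Of these, 3 are shown because they hold a motif that was searched for on both strands, marked in capitals. The motifs were TTC and GAA set 4 bases apart, the spacing that STAT6 prefers, TTCNNNGAA, the spacing of STAT3 and other STAT proteins, AAGGTCA, the core site of estrogen-related receptors, the E-box CAGCTG bound by myogenic factors, and the site of MEF2. The Frzb window (chr2:80447347-80447646, minus strand) holds TTCNNNGAA at position -87 and an E-box at -17, counted from the start of transcription to the first base of the motif. In the Ank2 window (chr3:126998403-126998702, minus strand) the E-box is at -163. The Hist3h2a window (chr11:58954435-58954734, plus strand) holds the STAT6 type at -193.
Frzb: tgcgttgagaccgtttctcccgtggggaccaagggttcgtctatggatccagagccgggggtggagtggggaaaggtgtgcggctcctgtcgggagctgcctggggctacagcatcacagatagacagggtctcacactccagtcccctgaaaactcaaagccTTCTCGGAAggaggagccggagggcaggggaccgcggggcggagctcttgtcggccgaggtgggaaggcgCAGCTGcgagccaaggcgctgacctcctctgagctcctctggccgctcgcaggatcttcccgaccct
Ank2: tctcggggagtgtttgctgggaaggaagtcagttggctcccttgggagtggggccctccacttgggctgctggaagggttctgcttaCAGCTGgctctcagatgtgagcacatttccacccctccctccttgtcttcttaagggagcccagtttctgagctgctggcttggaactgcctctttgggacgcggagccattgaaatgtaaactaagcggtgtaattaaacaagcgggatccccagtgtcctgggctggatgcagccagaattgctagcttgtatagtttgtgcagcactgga
Hist3h2a: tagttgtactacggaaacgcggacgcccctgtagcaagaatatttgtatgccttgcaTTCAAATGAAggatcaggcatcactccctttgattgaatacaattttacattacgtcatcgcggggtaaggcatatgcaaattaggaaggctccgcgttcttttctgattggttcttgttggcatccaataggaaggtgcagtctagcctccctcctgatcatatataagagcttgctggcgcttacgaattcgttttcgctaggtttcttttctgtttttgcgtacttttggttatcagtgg
Over all 32851 windows, 6.95% hold the STAT6 type, 8.30% TTCNNNGAA, 4.72% AAGGTCA, 16.3% CAGCTG and 3.19% the MEF2 site. The windows of Shc2 and Twistnb hold none of these letters, and no window is shown for Khdrbs3, Tm6sf1, Timm21, Klf5 and Cdk19. Such a match describes the sequence and is not a measured binding site.

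All 10 genes passed the filter on low values, 1 RPKM in at least 4 of the 16 libraries, as did 10171 genes in all. Between trained and untrained mice, the 4 values of one group lay wholly above or below the 4 of the other in KO muscle for 2 of the 10 genes, against 9.43% of all genes tested. In WT muscle this held for 8 of the 10, against 6.37% of all genes tested, which the choice of the genes by this contrast largely fixes. Those 8 were Khdrbs3, Frzb, Tm6sf1, Ank2 and Timm21, higher in WT trained mice, and Shc2, Cdk19 and Hist3h2a, lower in WT trained mice. The remaining pair, Klf5 and Twistnb, did not respond in WT alone by this measure: their groups did not overlap in KO and overlapped in WT. Average levels over the 16 libraries ran from 1.17 RPKM for Klf5 to 11.2 for Cdk19, against a median of 5.66 RPKM for all genes tested.

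**Figure D1:**
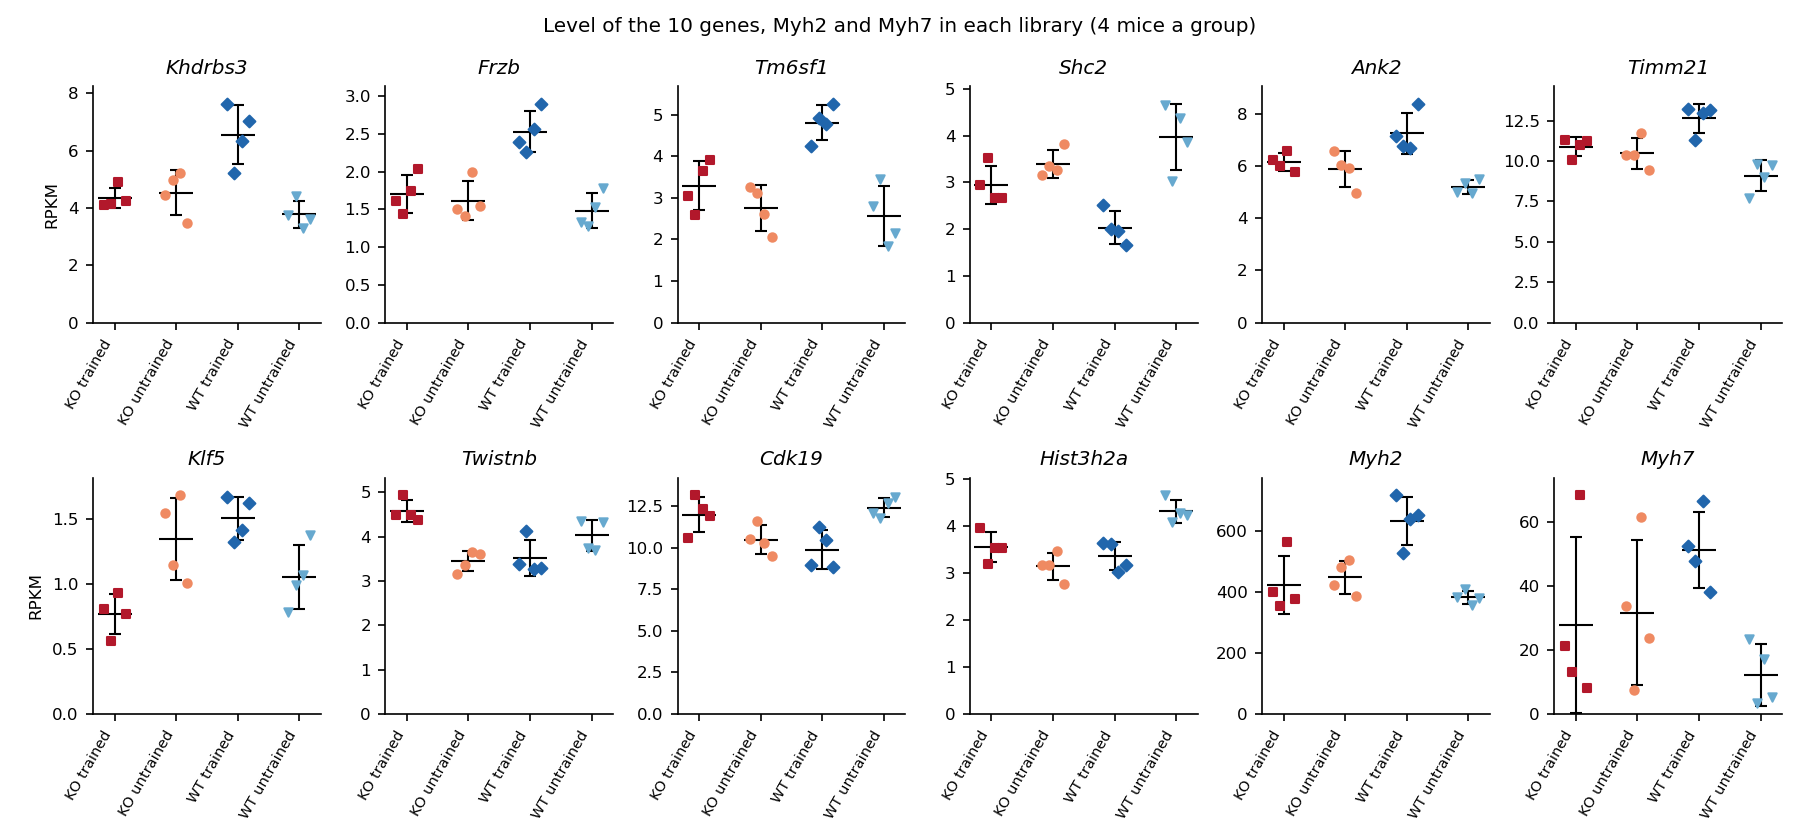
RPKM of the 10 genes, Myh2 and Myh7 in each of 16 libraries. Points are mice, horizontal bars are group means and error bars are SDs over 4 mice; Khdrbs3, Frzb, Tm6sf1, Ank2 and Timm21 stand highest in the WT trained group, while Shc2 stands lowest there.

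Khdrbs3 (chromosome 15, 68928420 to 69093518, plus strand, mm10) encodes an RNA-binding protein of the STAR family that directs alternative splicing, best known in neurons. It had 4.12, 4.15, 4.89 and 4.23 RPKM in KO trained muscle, against 4.46, 4.98, 5.22 and 3.49 RPKM in KO untrained muscle. In WT trained muscle it had 7.65, 5.23, 6.34 and 7.02 RPKM, against 3.76, 4.42, 3.31 and 3.63 RPKM in WT untrained muscle. Every WT trained mouse lay above all 12 mice of the other groups, although the lowest of them was only just above the highest KO untrained mouse. On the log2 scale, trained minus untrained was -0.05 ± 0.13 in KO and 0.77 ± 0.13 in WT (± SE, 4 mice a group), and the ratios of the means were 0.958 in KO and 1.74 in WT. Here and below, the SE of a training difference comes from 1 fit over all 16 libraries, so both genotypes share it. The Khdrbs3 levels rest on 105 to 241 reads a library.

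Frzb (chromosome 2, 80411970 to 80447396, minus strand) encodes a secreted frizzled-related protein that binds Wnt ligands outside the cell and blocks their signal, and it is abundant in cartilage and tendon. Its level was 1.61, 1.44, 1.74 and 2.03 RPKM in KO trained mice, against 1.5, 1.41, 1.99 and 1.55 RPKM in KO untrained mice. WT trained mice had 2.39, 2.26, 2.56 and 2.90 RPKM, against 1.33, 1.27, 1.53 and 1.79 RPKM in WT untrained mice. The 4 WT trained values were above all others, and the other 3 groups ran through each other. The training difference was 0.08 ± 0.14 in KO and 0.74 ± 0.14 in WT (log2, ± SE, 4 mice a group). The tendon sum given above was also higher in every WT trained than in every WT untrained library, while the fibre sum was lower. Their part in the values of Frzb, and of the other genes whose WT groups were apart, was not tested.

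Tm6sf1 (chromosome 7, 81859022 to 81884068, plus strand) encodes a multi-pass membrane protein of little-studied function, related to TM6SF2, which takes part in lipid export from the human liver. Its level was 3.05, 2.59, 3.64 and 3.90 RPKM in KO trained muscle, against 3.26, 3.11, 2.62 and 2.05 RPKM in KO untrained muscle. In WT it was 4.26, 4.93, 4.77 and 5.27 RPKM in trained muscle, against 2.80, 3.46, 1.84 and 2.16 RPKM in untrained muscle. All WT trained values were the highest of the 16, and the KO groups overlapped, with the highest 2 KO values both in trained mice. Trained minus untrained came to 0.25 ± 0.18 in KO and 0.92 ± 0.18 in WT on the log2 scale, the largest value in WT among the genes higher in WT trained mice here. In GENCODE M21, 854 bases of its exons lie opposite exons of Hdgfl3, and whether strand was used in counting is not given in the sources used here. Hdgfl3, listed under its older name Hdgfrp3, had 32 to 63 reads a library.

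Shc2 (chromosome 10, 79617938 to 79637918, minus strand) encodes an adaptor that links activated receptor tyrosine kinases to Ras signalling, mainly studied in neurons. It stood at 2.95, 3.53, 2.67 and 2.67 RPKM in KO trained mice, against 3.16, 3.34, 3.27 and 3.83 RPKM in KO untrained mice. Levels of 2.51, 2.00, 1.95 and 1.66 RPKM were measured in WT trained mice, against 4.65, 3.02, 4.38 and 3.86 RPKM in WT untrained mice. Every WT trained mouse was below all 12 others. The log2 difference with training was -0.20 ± 0.14 in KO and -0.93 ± 0.14 in WT (± SE, 4 mice a group), so both genotypes had the same sign, and WT trained muscle held 0.511 times the mean of WT untrained muscle.

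Ank2 encodes ankyrin-B, which ties ion pumps and exchangers of the membrane to the spectrin skeleton beneath it. It is listed on chromosome 3 from 126921607 to 126998452 on the minus strand, a span of 76846 bases that holds 49 of the 98 exons annotated in GENCODE M21, so the values are those of this shorter gene model. Its level was 6.24, 6.0, 6.60 and 5.79 RPKM in KO trained muscle, against 6.59, 6.06, 5.94 and 4.97 RPKM in KO untrained muscle. WT trained muscle had 7.17, 6.79, 6.70 and 8.41 RPKM, against 5.00, 5.36, 4.98 and 5.50 RPKM in WT untrained muscle. The WT trained group was highest throughout, the highest KO value coming close to its lowest one. With 630 to 1131 reads a library, the counting error of a single library was 3.21% to 3.84% of the group mean. Trained minus untrained was 0.07 ± 0.09 in KO and 0.47 ± 0.09 in WT on the log2 scale.

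Timm21 (chromosome 18, 84947294 to 84951524, minus strand) encodes a subunit of the TIM23 complex, which carries proteins with a targeting sequence through the inner mitochondrial membrane. It had 11.3, 10.04, 11.0 and 11.2 RPKM in KO trained mice, against 10.4, 10.4, 11.8 and 9.43 RPKM in KO untrained mice. In WT mice it had 13.2, 11.3, 12.96 and 13.2 RPKM after training, against 7.73, 9.80, 9.04 and 9.75 RPKM without it. The WT groups did not overlap, but 1 WT trained mouse lay among the KO values. The difference with training was 0.06 ± 0.09 in KO and 0.48 ± 0.09 in WT on the log2 scale.

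Klf5 (chromosome 14, 99298691 to 99313409, plus strand) encodes a zinc finger transcription factor of the Kruppel-like family, known for roles in smooth muscle, fat and epithelia and in muscle lipid metabolism. It had 0.812, 0.562, 0.930 and 0.774 RPKM in KO trained muscle, against 1.55, 1.15, 1.69 and 1.01 RPKM in KO untrained muscle. WT trained muscle had 1.67, 1.32, 1.42 and 1.63 RPKM, against 0.784, 0.996, 1.07 and 1.38 RPKM in WT untrained muscle. The KO trained mice were wholly below the KO untrained mice and below the WT trained mice, and the WT groups overlapped by 1 mouse. Trained minus untrained was -0.73 ± 0.18 in KO and 0.49 ± 0.18 in WT (log2, ± SE, 4 mice a group), the widest gap between the genotypes among the 10 genes at this pseudocount. With a pseudocount of 1 the differences were -0.40 in KO and 0.29 in WT, and the KO minus WT difference of the responses was -0.69, against -1.22 with 0.1, while that of Khdrbs3 was -0.70. The nerve and Schwann cell sum and the fibre sum were also lower in all KO trained than in all KO untrained libraries. Their part in the Klf5 values was not tested. Klf5 is also the gene with the fewest reads, 18 to 50 a library. For a single library, counting alone gives an error of 14.7% to 20.1% of the group mean. All 4 KO trained mice were under the level of 1 RPKM used by the filter.

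Twistnb (chromosome 12, 33429624 to 33439380, plus strand) encodes a subunit of RNA polymerase I, the enzyme that transcribes ribosomal RNA genes. It was at 4.49, 4.94, 4.50 and 4.36 RPKM in KO trained mice, against 3.16, 3.36, 3.65 and 3.62 RPKM in KO untrained mice. WT mice had 3.38, 4.13, 3.28 and 3.28 RPKM when trained, against 4.35, 3.74, 3.70 and 4.32 RPKM when untrained. KO trained mice lay above every other mouse, by a small step over the highest WT untrained mouse, and 1 WT trained mouse lay inside the WT untrained range. The difference was 0.40 ± 0.09 in KO and -0.19 ± 0.09 in WT on the log2 scale, larger in the knockout than in WT. The nerve and Schwann cell sum and the fibre sum parted the KO groups too. Both were lower in KO trained libraries, where Twistnb was higher, and their part was not tested.

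Cdk19 (chromosome 10, 40349308 to 40483818, plus strand) encodes a kinase of the Mediator complex, a close paralogue of Cdk8. Its level was 10.6, 13.2, 12.3 and 11.9 RPKM in KO trained muscle, against 10.5, 11.6, 10.3 and 9.51 RPKM in KO untrained muscle. In WT it was 8.98, 11.2, 10.4 and 8.84 RPKM in trained muscle, against 12.1, 11.8, 12.7 and 13.1 RPKM in untrained muscle. WT untrained mice were above all WT trained and all KO untrained mice, and KO trained mice overlapped each of the other groups. The values give 0.19 ± 0.09 for training in KO and -0.33 ± 0.09 in WT on the log2 scale. An antisense gene, Cdk19os, shares 268 bases with its exons, and reads of both genes cannot be told apart if strand was not used.

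Hist3h2a, now named H2aw, (chromosome 11, 58954685 to 58956674, plus strand) is a single-exon gene of histone H2A, a core protein of the nucleosome. It had 3.97, 3.19, 3.54 and 3.54 RPKM in KO trained mice, against 3.18, 3.17, 3.48 and 2.78 RPKM in KO untrained mice. WT trained mice had 3.64, 3.62, 3.03 and 3.18 RPKM, against 4.67, 4.09, 4.29 and 4.25 RPKM in WT untrained mice. The WT untrained group lay above all 12 other mice, so the group that stands apart here is the untrained WT one. The fibre sum was also higher in every WT untrained library than in all others, and its part in the Hist3h2a values was not tested. Training gave 0.17 ± 0.09 in KO and -0.35 ± 0.09 in WT on the log2 scale. Most replication-dependent histone transcripts lack a poly(A) tail and the libraries were made with an mRNA kit, so only transcripts that such a kit captures were counted. A same-strand neighbour, Trim17, shares 708 bases with the gene and had 0 to 3 reads a library.

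**Figure D2:**
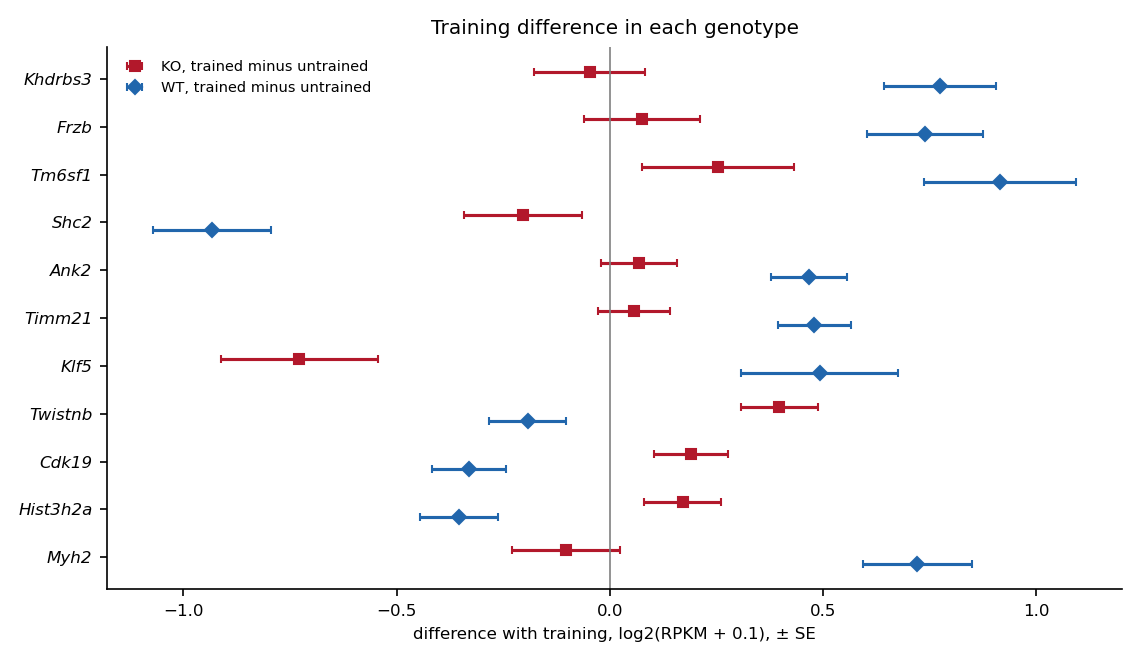
Trained minus untrained in KO (squares) and WT (diamonds) for the 10 genes and Myh2, as log2(RPKM + 0.1) with SE from 4 mice a group. KO values lie near 0 for Khdrbs3, Frzb, Ank2 and Timm21, while Klf5, Twistnb, Cdk19 and Hist3h2a have opposite signs in the 2 genotypes.

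Set out by genotype, the same values show where the groups part. In trained mice, 8 of the 10 genes had KO and WT groups that did not overlap, against 8.48% of all genes tested: Shc2 and Twistnb were higher in KO, and Khdrbs3, Frzb, Tm6sf1, Ank2, Timm21 and Klf5 lower in KO. In untrained mice 3 did so, against 3.95% of all genes tested, and Twistnb, Cdk19 and Hist3h2a were lower in KO, in the comparison in which the nerve and Schwann cell sum was higher and the fibre sum lower in KO. These splits are fixed in part by the choice of the genes and carry no test. The difference between KO and WT averaged over both training states is orthogonal to both training contrasts, and it was tested by limma with adjustment over 10171 genes. None of the 10 genes passed an adjusted p of 0.05, as 0.0787% of all genes did. Unadjusted p-values were under 0.05 for 3 of the 10, against 12.2% of all genes.

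Those 3 were all lower in KO. Hist3h2a differed by -0.18 (log2, SE 0.06, limma adjusted p = 0.323), with all 4 KO untrained mice below all 4 WT untrained mice and overlapping groups in trained mice. Frzb differed by -0.22 (SE 0.10, limma adjusted p = 0.378) and Klf5 by -0.29 (SE 0.13, limma adjusted p = 0.385). In both genes the trained groups alone did not overlap. A two-sided exact permutation of genotype within training state, with 4900 regroupings, gave p = 0.0612 for Hist3h2a, 0.121 for Frzb and 0.198 for Klf5. Its regroupings mix the KO and WT mice of each training state, so their spread includes the gap between the genotypes in that state. The choice of the genes partly set those gaps, so this permutation, unlike the limma contrast, is not free of that choice. Of the other 7 genes, Timm21 was nearest to 0, at -0.00237 (SE 0.0603).

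Fibre composition was not measured, and the transcripts of Myh2 and Myh7 were used as markers of type 2A and slow fibres. Neither was the main myosin of this muscle: the fast forms Myh4 and Myh1 had medians of 9269 and 619 RPKM over the 16 libraries, against 414 for Myh2 and 23.7 for Myh7. Myh2 had 399, 352, 562 and 375 RPKM in KO trained muscle, against 421, 479, 504 and 387 RPKM in KO untrained muscle. In WT it had 716, 526, 637 and 650 RPKM in trained muscle, against 383, 408, 356 and 379 RPKM in untrained muscle. The WT groups were apart, and 1 KO trained mouse reached the WT trained range. Myh7 spread far more, with 21.3, 13.3, 68.4 and 8.24 RPKM in KO trained, 33.9, 7.5, 61.5 and 23.9 in KO untrained, 52.4, 47.9, 66.7 and 38.1 in WT trained and 23.5, 3.30, 17.3 and 5.23 in WT untrained mice. The third mouse of each KO group stood highest in both myosins within its group.

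Whether a gene follows a myosin from mouse to mouse within a group was not used to choose the genes, and it was tested as a slope in a fit with 1 mean a group. Khdrbs3 had the steepest slope on Myh2 among the 10 genes: its log2 level differed by 0.81 for each log2 unit of Myh2 (SE 0.18). It ranked 26 of 10170 genes by p in this limma fit, and at an adjusted p of 0.150 it did not pass. No gene passed in this test (0.0% of 10170, also 0 by voom on recovered reads), although 11.3% had an unadjusted p under 0.05. Khdrbs3 and Myh2 were highest in the same library in all 4 groups. Leaving out 1 library at a time, the Khdrbs3 slope ran from 0.69 to 1.26, the highest without the third KO trained mouse, in which Myh2 was high and Khdrbs3 less so. Over the alternatives its adjusted p ran from 0.0975 to 0.803.

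Among the other genes Klf5 had a slope on Myh2 of 0.72 (SE 0.34, adjusted p = 0.444), Tm6sf1 of 0.48 (SE 0.35, adjusted p = 0.592), Timm21 of 0.31 (SE 0.16, adjusted p = 0.477) and Ank2 of 0.30 (SE 0.17, adjusted p = 0.512). The median slope of all genes was itself above 0, at 0.13. Shc2 and Twistnb had slopes of -0.29 (SE 0.28) and -0.19 (SE 0.18), and Cdk19 one of -0.12 (SE 0.18). On Myh7, the slow myosin, no slope of the 10 genes passed, with unadjusted limma p-values of 0.311 to 0.944, while 0.0688% of all genes did and 3.36% had an unadjusted p under 0.05. The Khdrbs3 slope on Myh7 was -0.00344 (SE 0.0481).

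**Figure D3:**
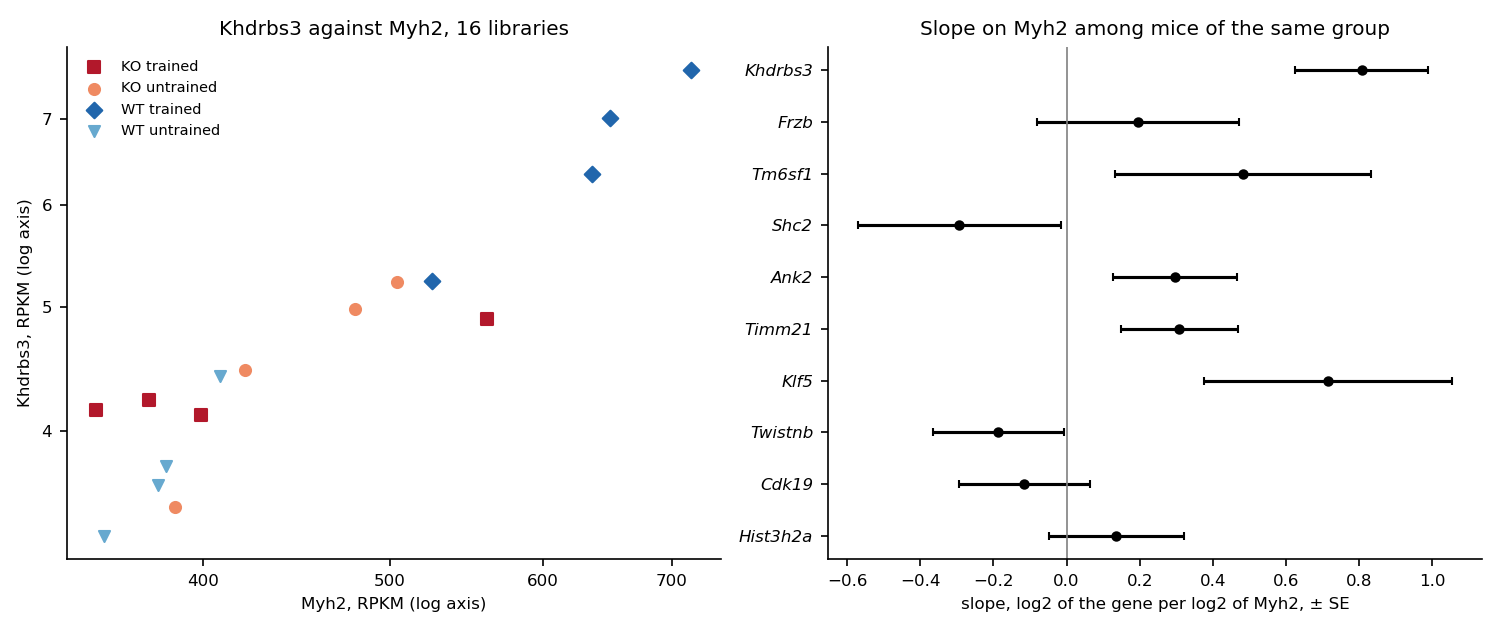
Left, Khdrbs3 against Myh2 in RPKM for 16 mice, both axes logarithmic, with a symbol for each group. Right, the slope of each gene on Myh2 among mice of the same group, with SE; Khdrbs3 has the steepest slope, 0.81, and Shc2, Twistnb and Cdk19 lie below 0.

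Adding Myh2 as a covariate gave the following values, which are a description with no test and rest on the contrast that chose the genes. Standard errors were wider with Myh2 in the fit, and no test was made of whether the genes moved by different amounts. The KO minus WT difference of the training responses was -0.16 ± 0.20 for Khdrbs3 with Myh2 in the fit, against -0.82 ± 0.18 without it (log2, ± SE). Ank2 moved to -0.15 ± 0.18, against -0.40 ± 0.13, and Timm21 to -0.17 ± 0.17, against -0.42 ± 0.12. Tm6sf1 and Klf5 were at -0.26 ± 0.38 and -0.63 ± 0.37, against -0.66 ± 0.25 and -1.22 ± 0.26.

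Frzb was at -0.50 ± 0.30, against -0.66 ± 0.19, and Cdk19 at 0.43 ± 0.19, against 0.52 ± 0.12. Shc2 was at 0.49 ± 0.30, against 0.73 ± 0.20, and Twistnb at 0.44 ± 0.19, against 0.59 ± 0.13. Hist3h2a was at 0.64 ± 0.20, against 0.52 ± 0.13, the 1 gene of the 10 whose value grew. With Myh7 as the covariate all 10 kept their sign, and Khdrbs3 was at -0.83 ± 0.23. Myh2 itself differed between the training groups, so a covariate of this kind takes up part of the training difference of any gene that goes with it.

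**Figure D4:**
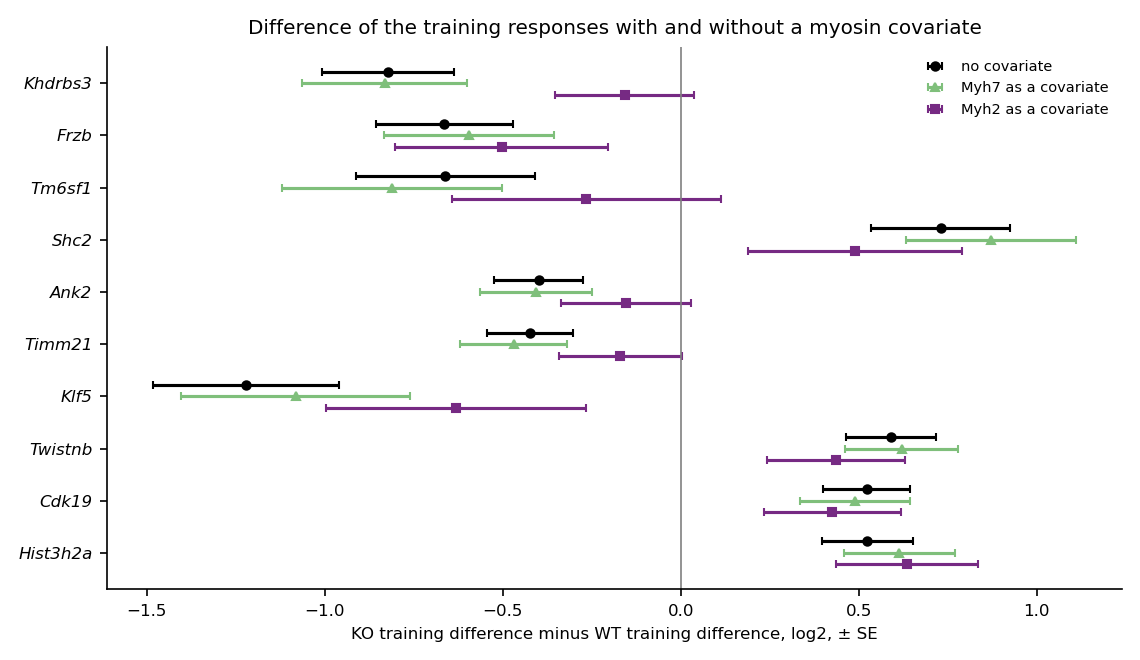
Training response in KO minus that in WT, on the log2 scale with SE, without a covariate and with Myh7 or Myh2 in the fit. With Myh2, Khdrbs3 is at -0.16, against -0.82 without it, and Hist3h2a and Cdk19 are at 0.64 and 0.43, against 0.52 each; no test was made of these shifts.

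Among mice of the same group, the 15 pairs among the 6 genes whose WT values were higher in trained mice (Khdrbs3, Frzb, Tm6sf1, Ank2, Timm21 and Klf5) had a median correlation of log2 levels of 0.48, and 14 of the 15 were above 0. The 6 pairs among Shc2, Twistnb, Cdk19 and Hist3h2a, lower in WT trained mice, had a median of 0.17. The 24 pairs across these 2 sets had a median of -0.22, and Shc2 was below 0 with all 6 genes of the first set, at -0.71 to -0.29. Timm21 and Klf5 were the closest pair (r = 0.80), followed by Frzb and Klf5 (0.68), Khdrbs3 and Timm21 (0.62) and Khdrbs3 and Ank2 (0.61). Tm6sf1 and Shc2 were the most opposed, at -0.71, in the same sense as their training differences in WT. Over all 45 pairs the median was 0.11, and for these genes with all genes tested it was 0.12. The 2 sets were split by the sign of a training contrast that chose the genes. The share of all gene pairs above 0 was not counted. These are descriptions over 16 libraries with the 4 group means removed, and all values of a library share its total.

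For each gene, the most similar gene over the 16 libraries by Pearson correlation of log2 levels, group differences included, was as follows. Khdrbs3 was closest to Myh2 itself (0.94), then to Mdh1, the cytosolic malate dehydrogenase (0.93). Ank2 was closest to Mfn1, which fuses outer mitochondrial membranes (0.95), then to Ndufaf1, an assembly factor of respiratory complex I (0.91). Timm21 was closest to Ptgr2, a prostaglandin reductase (0.93), then to Oxct1, which starts the use of ketone bodies in mitochondria (0.93). Frzb was likewise closest to Ptgr2 (0.89), then to P2ry1, a receptor for ADP (0.88).

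Tm6sf1 lay nearest to Crybg3 (0.88) and Aifm1, a flavoprotein of mitochondria (0.88), and Shc2 to Six2, a homeobox factor, and the glucose transporter gene Slc2a3 (both 0.89). A near neighbour of Klf5 was Add1, an adducin of the membrane skeleton (0.86). Twistnb paired with Rc3h2 (0.86) and Metap2, a methionine aminopeptidase (0.85), Hist3h2a with Vapb and Hexim2 (both 0.81). Cdk19 had the weakest neighbours, H2-Q6 (0.77) and Serinc3 (0.76), and H2-Q6 belongs to a family of near-identical genes whose reads can be split between copies. Myh2 ranked 40 of all genes for Ank2, 42 for Frzb, 57 for Timm21 and 85 for Tm6sf1. Its rank was 469 for Klf5, 9317 for Hist3h2a, 9321 for Twistnb, 10109 for Shc2 and 10125 for Cdk19. Neighbours and ranks include the group differences on which the genes were chosen, and Myh2 also differed between the WT groups. Among mice of the same group, Myh2 had r of 0.81 with Khdrbs3, 0.53 with Klf5 and 0.51 with Timm21. It had 0.48 with Ank2, 0.35 with Tm6sf1 and 0.20 with Frzb.

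Relatives and partners of the 10 genes were taken as 11 lists of 138 genes, of which 89 were tested. None passed an adjusted p of 0.05 in either training contrast, in the difference of responses, between genotypes or on either myosin, by limma or by voom. Of all genes tested, 0.0% passed for training in KO, 0.187% for training in WT and 0.0% for the difference of responses. Unadjusted p-values were under 0.05 for 10 of the 89 in KO, 8 in WT and 10 in the difference, against 13.7%, 11.8% and 8.4% of all genes. The list nearest to its member was that of secreted Wnt antagonists, relatives of Frzb. Their median difference with training was -0.19 in KO and 0.42 in WT on the log2 scale, against -0.06 in KO and 0.01 in WT for all genes. Of the 7 tested, 1 was above 0 in KO, against 35.1% of all genes, and 5 were above 0 in WT, against 52.4% of all genes. The difference of responses was above 0 for 0 of the 7, against 38.4% of all genes, with a median of -0.73, against -0.05 for all genes.

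Wif1, which binds Wnt ligands directly, averaged 0.814 ± 0.660 RPKM in KO trained and 0.895 ± 0.302 in KO untrained mice, and 1.48 ± 0.359 in WT trained and 0.622 ± 0.405 in WT untrained mice (SD, n = 4 each). Its difference of responses was -1.68 (SE 0.70, limma adjusted p = 0.550). Dkk2, which blocks the Wnt co-receptors, had a difference of -0.73 (SE 0.36, limma adjusted p = 0.603). The mean tendon sum, 153 ± 60.04 RPKM in KO trained, 189 ± 51.3 in KO untrained, 243 ± 26.1 in WT trained and 147 ± 15.9 in WT untrained libraries (SD, n = 4 each), had the order of the Wif1 means over the 4 groups. Its part in the Wif1 and Dkk2 values was not tested. Of 13 tested Wnt receptors and targets, 5 lay above 0 in the difference of responses, a share like the 38.4% of all genes, with a median of -0.09. Tcf7l1, a repressor of Wnt targets, had a difference of -0.49 (SE 0.14, limma adjusted p = 0.526), and Ccnd1, a cyclin gene that Wnt signals induce, -0.67 (SE 0.28, limma adjusted p = 0.550).

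For the other genes, the medians of the lists of partners were closer to 0 than the genes themselves. The 12 tested genes of TIM23 protein import had a median difference of responses of 0.00, with 6 on either side, against -0.42 for Timm21. Hspa9, the motor of the import channel, was at -0.20 (SE 0.08, limma adjusted p = 0.550) and Timm44, which holds that motor in place, at -0.23 (SE 0.12, limma adjusted p = 0.613). The 11 tested ankyrins and membrane partners had a median of -0.11, with Sptbn1, a spectrin, at -0.27. Among the 6 tested genes of Shc adaptors and partners the median was 0.01, and Shc1, the widespread member of the family, was at -0.13 beside 0.73 for Shc2.

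The 11 tested Kruppel-like factors had a median of -0.04, with Klf3 at -0.51 (SE 0.18, limma adjusted p = 0.526) and Klf11 at -0.45 (SE 0.21, limma adjusted p = 0.586), both of the sign of Klf5. RNA polymerase I genes, 14 tested, had a median of -0.01, and Polr1e (-0.30) and Cd3eap (-0.24) had the sign opposite to Twistnb. The Mediator kinase module, 5 tested, had a median of -0.08, with Cdk8 at -0.06 and Med12 at -0.11, beside 0.52 for Cdk19. Of 6 tested H2A genes the median was 0.03. H2afz, the variant histone H2A.Z, was at 0.30 (SE 0.09, limma adjusted p = 0.526) and H2afv at 0.15, both of the sign of Hist3h2a. Khdrbs1 and Sf1, relatives of Khdrbs3, were at -0.09 each, and Ebpl, the 1 tested gene of the Tm6sf1 list, at 0.15.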

How the data were processed

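RNA from the gastrocnemius of 16 mice was sequenced from stranded mRNA libraries, per the labels' protocols. The deposited values are RPKM, computed by the authors per gene and library, per the file headers. The submitters' processing notes name genome build mm10. No source used here gives the aligner, the counter or the use of strand. All 16 value columns were assigned through the labels. No label names a shared cage, litter or batch, and p-values measure the spread between mice. Sample numbers in the file headers run group by group, all WT before all KO, and mouse ids of WT and KO lie in separate ranges. Genotype therefore cannot be told apart from that order, and what the order marks is not given. Mice with the same replicate number in the KO groups carry neighbouring ids, as do some in the WT groups.

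The 10 genes and the lists of relatives, partners and cell markers were chosen with earlier results of these data known. Values were analysed as log2(RPKM + 0.1), which understates changes of low genes, for the 10171 genes that reached 1 RPKM in 4 or more libraries. A single limma fit (version 3.58.1, R 4.3.3, mean-variance trend, robust moderation with statmod 1.5.0) with 1 mean a group over all 16 libraries gave the contrasts, and a fit with log2 Myh2 or Myh7 added gave the slopes. Two-sided p-values were adjusted over all genes tested (Benjamini-Hochberg). The procedure was tested on simulated data. Whole reads were recovered from the steps between RPKM values for 17383 of 17402 genes above 0, with 99.9% of values whole within 0.01 read; they gave the depth, counting errors and an alternative by voom. Named beside the 10 genes are, of each list, the 2 genes with the smallest p in the difference of responses and any past the threshold, and for each of the 10 its 2 most similar genes. Some genes that this rule names are not reported here. Exon overlaps came from GENCODE M21. Markers Adgre1, Hbb-bs and Hbb-bt were not analysed here. The 23 other settings were a pseudocount of 1, no filter, quantile normalization, the replicate number as a block, voom, either myosin as a covariate and each of 16 libraries left out. Python 3.11.15 with NumPy 2.4.6, pandas 2.3.3, SciPy 1.17.1 and matplotlib 3.10.9 was used for the rest.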

Additional observations from a re-analysis of the deposited data

Results flagged for a closer look

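Of the 40 sets of 4 libraries, 10 genes in 4 groups, 3 had a library far from the other 3, where chance gives about 1 in 20. Khdrbs3 had 4.89 RPKM in 1 KO trained library, above 4.12 to 4.23 in the others, and that library also had the highest Myh2 and Myh7 of its group. Timm21 had 11.3 RPKM in 1 WT trained library, below 12.96 to 13.2 in the others. Twistnb had 4.13 RPKM in 1 WT trained library, above 3.28 to 3.38 in the others. The Timm21 and Twistnb values came from the same library, the second WT trained one.

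In 3 genes the training values went in opposite directions in KO and WT for every trained mouse, measured against the mean of the untrained mice. Klf5 had a difference of responses of -1.22, Cdk19 of 0.52 and Hist3h2a of 0.52 on the log2 scale. The difference was not tested for these genes, since they were chosen on it. The share of all genes that meet this rule was not counted, so the count of 3 restates the choice.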

How the results depend on the processing

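The difference of responses of the 10 genes kept its sign under all 7 other settings and with each library left out. With a pseudocount of 1 that of Klf5 was -0.69, against -1.22. Training in WT did so except for Klf5 with Myh2 as a covariate (-0.0238), and training in KO except for values near 0 in Khdrbs3, Frzb and Ank2. Over all genes, training in WT changed 19 genes, and this count was 39 with a pseudocount of 1, 3 with no filter, 155 after quantile normalization, 49 by voom and 0 with Myh7 or Myh2 as a covariate. It ran from 0 to 272 with 1 library left out, 272 without the first WT trained library and 0 without WT trained library 3, WT trained library 4 or WT untrained library 3. For training in KO the count was 0, with 1 gene without a filter and 0 to 106 with a library left out, 106 again without the first WT trained one. The difference of responses called 0 genes, 1 without a filter, 1 after quantile normalization and 0 to 2 with a library left out. Unadjusted p-values were under 0.05 for 13.7% of genes in KO and 8.4% for the difference. With a library left out, the genotype count of 8 ran from 8 to 9, the Myh7 slope count of 7 from 6 to 8, and the Myh2 slope count of 0 from 0 to 10, 10 without the second KO untrained library.

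With the replicate number as a block, the Myh7 slope count was 3. The labels do not say what the numbers mark. The mice were treated as unpaired because same-numbered deviations did not correlate above 0.1 in every pair. That rule cannot exclude a pairing within KO alone, where all same-numbered mice also carry neighbouring ids, as some do in WT. Between the KO groups r was 0.05 to 0.44 and over 0.1 in 3 of 4 pairs, and 3 of 4 KO untrained libraries correlated best with their own number in KO trained, as did 2 of 4 in the other direction. Between the other groups r was -0.18 to 0.20. Slopes on Myh7 near 0 changed sign in that block for Frzb (-0.0373), Klf5 (-0.109) and Cdk19 (0.0151), and elsewhere for Khdrbs3 (0.000357 with pseudocount 1, 4.7e-05 after quantile normalization) and Ank2 (0.00386 after quantile normalization). The Hist3h2a slope on Myh2 was -0.0499 after quantile normalization. Genotype differences changed sign for Timm21 (0.0264 after quantile normalization, 0.0551 with Myh2), Ank2 (0.0232 with Myh2) and Cdk19 (-0.00275 with Myh2). None of these passed the threshold in any setting, and the cause was not tested.

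With 1 library left out, Myh7 slopes on either side of 0 were -0.0396 to 0.0300 for Khdrbs3, -0.0103 to 0.0600 for Frzb, -0.107 to 0.00173 for Tm6sf1, -0.0243 to 0.00569 for Ank2, -0.0416 to 0.0103 for Timm21, -0.00243 to 0.0212 for Twistnb and -0.0257 to 0.0128 for Cdk19. Genotype differences were -0.0600 to 0.00667 for Ank2, -0.0395 to 0.0222 for Timm21 and -0.00609 to 0.0509 for Cdk19, and the Cdk19 slope on Myh2 was -0.347 to 0.0228. Depth limits Klf5 most, with 18 to 50 reads a library.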
